A study of Homo sapiens with 6 samples.

Results

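Of 12538 CpG-dense promoters of autosomal protein-coding genes measured in human embryonic stem cells of the line H9, 367 (2.93%) were methylated in conventional cells, and these are described here with their gene families and their level after resetting. Each promoter window began 1000 bp before the canonical transcription start site (TSS) in GRCh37 and ended 500 bp after it. CpG-dense means at least 60 CpGs in the reference sequence of that window. Each promoter needed at least 10 calls in all 6 libraries, and its mean level over the 3 Conventional libraries had to reach 50%. A call is 1 read's methylated or unmethylated state at 1 CpG cytosine, and the methylation level is the percentage of a window's calls that were methylated. The Conventional level therefore chose these promoters, so their Conventional values and their fall from Conventional to Reset are given as a description. The depth minimum left out 77 other CpG-dense promoters. The 367 promoters formed 352 separate regions, because 15 regions held an overlapping pair.

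Whole-genome bisulfite sequencing was carried out on 3 libraries labelled Conventional and 3 labelled Reset. Conventional cells were grown in FGF/KSR, which is medium with 10 ng/ml bFGF and 20% KSR. Reset cells descended from H9 cells carrying doxycycline-inducible NANOG and KLF2. The transgenes had been induced with 1 µM DOX, DOX was later removed, and the cells were kept in t2iL+Gö, that is human LIF with 1 µM PD0325901 (a MEK inhibitor), 1 µM CHIR99021 (a GSK3 inhibitor) and 5 µM Gö6983 (a PKC inhibitor). Both groups grew on mouse embryonic fibroblast feeders at 5% oxygen, and the share of feeder DNA was not measured here. The study describes its bisulfite sequencing as done on biological replicates, but neither it nor the labels say what separated them (cultures, passages or resettings), so p-values measure only the spread between these libraries. All 6 libraries derive from 1 cell line, and the Reset libraries may derive from a single resetting. Cells and alleles of 1 library are averaged in every level. The libraries held 70329213 to 98004161 calls, or 2.53 to 3.5 calls per autosomal CpG, and 84.4% to 84.7% of autosomal calls were methylated in Conventional libraries against 29.5% to 30.3% in Reset libraries.

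In most human cells CpG-dense promoters carry no methylation, while CpG-poor sequence is mostly methylated. A methylated CpG-dense promoter is generally silent, and this state is known best from genes of the germ line, from the silenced allele of imprinted genes and from the inactive X chromosome. Naive pluripotent cells and the cells of the preimplantation embryo have little DNA methylation over the genome as a whole, and some sequences are known to keep more of it than others. In these libraries 10082 of the CpG-dense promoters (80.4%) were under 20% in Conventional cells and 2089 (16.7%) lay between 20% and 50%.

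The 200 bases upstream of the start site are shown for 6 of the 367 promoters that mark the range of outcomes, in GRCh37, 5′ to 3′ on the strand of the gene, with each CpG in capitals. DAZL and RNF17 are germ cell genes whose promoters were above 60% in Reset cells, ZNF667 encodes a C2H2 zinc finger protein, PEG3 is a paternally expressed imprinted gene, DPPA5 is a marker of early pluripotent cells, and H3C3 encodes a replication-dependent histone H3.
DAZL: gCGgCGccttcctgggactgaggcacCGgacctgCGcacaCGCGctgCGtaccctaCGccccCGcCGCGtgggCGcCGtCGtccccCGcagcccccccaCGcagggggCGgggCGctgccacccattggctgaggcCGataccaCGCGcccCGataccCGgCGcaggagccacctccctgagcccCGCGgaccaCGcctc
RNF17: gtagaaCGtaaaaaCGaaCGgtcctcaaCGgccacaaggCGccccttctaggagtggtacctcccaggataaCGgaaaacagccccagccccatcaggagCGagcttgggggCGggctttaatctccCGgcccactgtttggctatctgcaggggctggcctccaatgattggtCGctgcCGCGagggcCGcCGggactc
ZNF667: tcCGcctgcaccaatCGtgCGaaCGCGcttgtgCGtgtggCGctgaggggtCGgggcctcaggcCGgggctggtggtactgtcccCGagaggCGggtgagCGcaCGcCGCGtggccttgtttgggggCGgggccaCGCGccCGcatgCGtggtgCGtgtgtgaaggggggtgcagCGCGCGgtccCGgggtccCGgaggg
PEG3: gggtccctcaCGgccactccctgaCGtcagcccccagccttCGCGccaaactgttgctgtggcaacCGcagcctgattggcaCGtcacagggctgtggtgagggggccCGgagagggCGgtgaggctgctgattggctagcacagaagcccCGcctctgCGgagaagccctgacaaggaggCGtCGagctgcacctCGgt
DPPA5: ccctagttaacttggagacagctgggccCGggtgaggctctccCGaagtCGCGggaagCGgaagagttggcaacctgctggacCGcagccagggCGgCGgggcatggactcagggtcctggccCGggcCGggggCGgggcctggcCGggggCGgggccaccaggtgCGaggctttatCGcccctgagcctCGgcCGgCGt
H3C3: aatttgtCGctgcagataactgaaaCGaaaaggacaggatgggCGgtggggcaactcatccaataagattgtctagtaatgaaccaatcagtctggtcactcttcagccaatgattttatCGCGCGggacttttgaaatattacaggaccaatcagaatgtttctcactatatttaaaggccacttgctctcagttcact

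Values for these stretches are means with the SD over 3 libraries. The DAZL stretch (chr3:16646931-16647130, minus strand) has 27 CpGs and was at 95.2% ± 2.36 in Conventional and 68.4% ± 7.66 in Reset libraries, from at least 36 calls in each. The RNF17 stretch (chr13:25338107-25338306, plus strand) has 14 CpGs and was at 98.2% ± 3.12 in Conventional and 64.6% ± 14.7 in Reset libraries, from at least 15 calls in each. The ZNF667 stretch (chr19:56988715-56988914, minus strand) has 26 CpGs and was at 93.3% ± 5.92 in Conventional and 0.667% ± 1.15 in Reset libraries, from at least 11 calls in each. The DAZL and RNF17 stretches lay far above that of ZNF667 in Reset cells. The PEG3 stretch (chr19:57352095-57352294, minus strand) has 13 CpGs and was at 94.2% ± 5.19 in Conventional and 0.952% ± 1.65 in Reset libraries, from at least 12 calls in each. The DPPA5 stretch (chr6:74064000-74064199, minus strand) has 18 CpGs and was at 97.6% ± 2.23 in Conventional and 1.89% ± 1.85 in Reset libraries, from at least 27 calls in each. The H3C3 stretch (chr6:26045412-26045611, plus strand) has 6 CpGs and as few as 2 calls in a library, too few for a level of its own.

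Over all 367 promoters the mean level was 83.1%, 84.3% and 83.6% in the 3 Conventional libraries and 29.8%, 30.1% and 30.1% in the 3 Reset libraries. The group means were 83.7% ± 0.58 and 30% ± 0.188 (SD over libraries, n = 3 each). The medians over promoters were 90.1% in Conventional and 29.4% in Reset cells, with a median fall of 50.1 percentage points and a median loss of 64% of the Conventional level. The outcome in Reset cells was spread widely, with quartiles of 11.9% and 46.9% and a range from 0.0768% at ZNF667 to 69.5% at DAZL. In the plot of Conventional against Reset level, promoters with Conventional levels near 90% and above lie anywhere in that range.

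**Figure D1:**
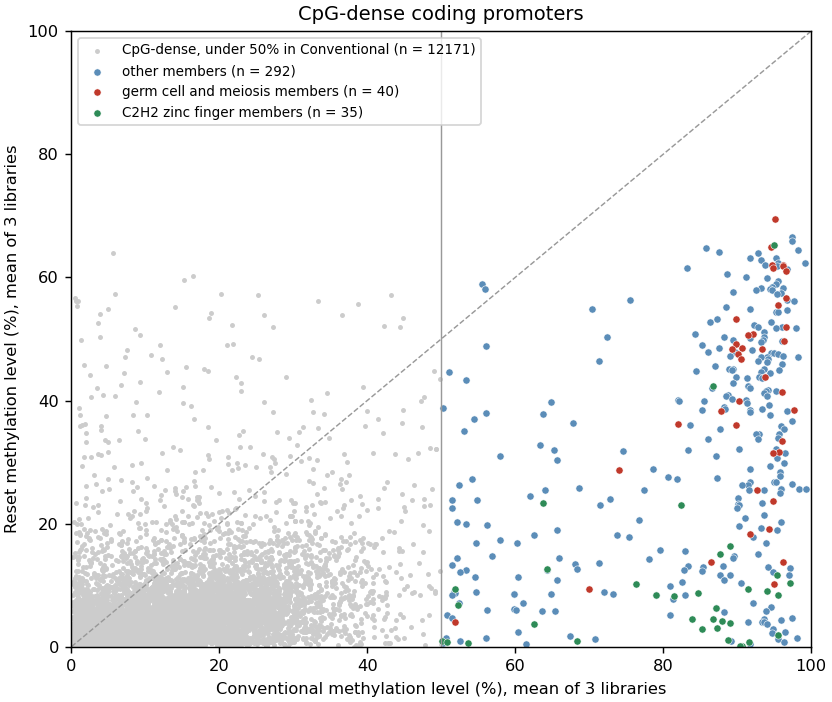
Mean level of each CpG-dense promoter in Conventional (x axis, %) and Reset libraries (y axis, %), 3 libraries each. Grey points are under 50% in Conventional, coloured points are the 367 methylated promoters, the solid line marks the 50% used to choose them and the dashed line equal levels. The green zinc finger points lie mostly under 20% in Reset cells (31 of 35), and the red germ cell and meiosis points reach up to 69.5%.

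By Reset level, 42 promoters (11.4%) were under 5%, 95 (25.9%) lay from 5% to under 20%, 162 (44.1%) from 20% to under 50% and 68 (18.5%) at 50% or more. The lowest class held 16 zinc finger genes, 5 histone genes and 1 gene of germ cells and meiosis. The highest class held 1 zinc finger gene, 3 histone genes and 13 genes of germ cells and meiosis. In all, 54 promoters lost at least 90% of their Conventional level and 110 lost under 50% of it. These differences between promoters recurred in each library. Pearson correlations of the Reset level between pairs of Reset libraries over the 367 promoters were 0.901 to 0.912, while the median promoter had an SD of 4.17 points over the 3 Reset libraries and of 3.37 over the Conventional ones. The median was 163 calls per promoter in a Conventional library and 158 in a Reset library, the fewest were 13, and 7 promoters had under 30 calls in some library.

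A quasi-binomial model of the calls, fitted to 18551 promoters with Benjamini-Hochberg adjustment and F tests with limma's moderated dispersion, called 66.6% of all promoters lower in Reset and 4.11% higher. It called 361 of the 367 lower and 0 higher, a count that the choice by Conventional level does much to fix. To test the fall on libraries that took no part in the choice, promoters were chosen by 1 Conventional library alone and tested with the remaining ones. With Conventional replicate 1 choosing, 383 promoters were chosen, of which 345 were among the 367, and 371 of the 383 were called lower in Reset, against 64.6% of all promoters in the same fit. Those 383 had a mean level of 82.5% in the choosing library, 80.8% in the other Conventional libraries and 29.5% in Reset libraries, with a median fall of 49.3 points. Choosing with replicate 2 gave 386 of 398 called lower and choosing with replicate 3 gave 369 of 381, against 64.5% and 64.8% of all promoters. Called higher were 0, 0 and 3 promoters when replicates 1, 2 and 3 did the choosing, against 3.59%, 3.79% and 3.56% of all promoters. All promoters include the 10082 CpG-dense ones under 20% in Conventional, which had little room to fall. The share of all promoters called lower is thus not a like-for-like background. Conventional libraries were close to each other and Reset levels were low over the genome, so high counts called lower were likely in advance.

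Genes of germ cells and meiosis gave more of the 367 promoters than any other list examined. The lists differ in size and were chosen with earlier results of these data known, so this order is a description. They were 40 of the 367, and of the 73 CpG-dense promoters on this list 54.8% were methylated in Conventional cells, against 2.93% of all CpG-dense promoters. Their mean level was 91.1% ± 0.167 in Conventional and 40.9% ± 0.467 in Reset libraries (SD, n = 3 each), and 7 of the 40 were under 20% in Reset. The list is not complete, and the remaining 327 promoters include genes known from the testis, such as H3-4, so the comparison depends on the list. The remaining 327 promoters had a mean of 28.7% ± 0.174 in Reset, so the listed germ cell promoters were 12.2 points higher (12 to 12.7 in the 3 Reset libraries). The difference was above 0 in 3 of 3 libraries, and an exact sign-flip test over the 3 Reset libraries gave p = 0.25 (two-sided, adjusted p = 0.25 over this and the zinc finger comparison), the smallest value that 3 libraries allow. Conventional levels differed between these sets too. Among promoters at 80% or more in Conventional, where 37 germ cell promoters stood at 93.1% and 230 others at 91.7%, the Reset levels were 43.1% ± 0.3 and 32.9% ± 0.33. With a minimum of 80 CpGs in place of 60 the germ cell difference was 6.72 points. The remaining 93 genes of this list, which were CpG-poor or below 50% in Conventional, included 82 called lower and 0 called higher, against 66.6% and 4.11% of all promoters.

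Among regulators of the germ line, DAZL, an RNA-binding protein of germ cells, had the highest Reset level of all 367 promoters. Its level was 95.7%, 95.8% and 93.8% in the Conventional and 68.5%, 73.8% and 66.2% in the Reset libraries, a loss of 27.0% of the Conventional level. DDX4, the germ cell RNA helicase VASA, stood at 96.8%, 96.9% and 95.7% and then at 47.9%, 49.1% and 52.2%. SOHLH2, a transcription factor of early germ cells, had the highest Conventional level of the list (97.7% ± 1.38) and 44.6%, 30.2% and 40.5% in the Reset libraries, and its partner SOHLH1 had 46.2%, 46.9% and 49.6%. All 3 Reset libraries of each of these 4 promoters were at 30.2% or more.

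The piRNA pathway protects the germ line by silencing transposable elements with small RNAs bound to PIWI proteins. The list used for this pathway is not complete. Of its 16 CpG-dense promoters 12 were methylated in Conventional cells, at 93.6% ± 0.437, and they were at 40.3% ± 0.331 in Reset libraries. The PIWI proteins themselves ended at 46.4%, 48.6% and 52.6% (PIWIL1) and at 49.4%, 35.4% and 35.0% (PIWIL2). Tudor domain proteins, which bind arginine-methylated PIWI proteins, covered a wide range. TDRD12 kept 61.3%, 66.7% and 67.1%, RNF17, also known as TDRD4, kept 62.4%, 65.2% and 58.3%, and TDRD9 kept 54.2%, 60.3% and 55.2%. TDRD5 and TDRD6 ended lower, at 38.3% ± 7.67 and 33.4% ± 6.17. TDRD12, RNF17 and TDRD9 were each above TDRD5 and TDRD6 in all 3 Reset libraries. The lowest members were PLD6, a mitochondrial protein of piRNA biogenesis, at 14.3%, 14.7% and 12%, and MAEL at 9.55%, 25.5% and 19.8%. ASZ1 varied most between libraries, with 37.6%, 16.1% and 41.2%.

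Some genes of the meiotic chromosome axis, on which the synaptonemal complex joins homologous chromosomes, and of telomere attachment ended low. SYCP3, a component of the axis, went from 93.5%, 96.3% and 95.1% to 7.96%, 10.2% and 12.4%. SYCP2, its partner, had the lowest Reset level of the list, 2.44%, 3.77% and 5.68%, but from Conventional levels of only 58.0%, 50.3% and 47.1%. MAJIN, which tethers telomeres to the nuclear envelope in meiosis, ended at 7.98%, 7.14% and 12.8%, and KASH5, which links them to the cytoskeleton, at 14.5%, 13.6% and 12.9%. Not all genes of meiosis were low, since SYCE1 of the central element stood at 48.6% ± 7.55, TERB1, which works with MAJIN, at 50.7% ± 4.34, and SPATA22, a recombination factor, at 61% ± 2.86. Some well known germ cell genes fell outside the choice because they had too few CpGs. TDRD1 (47 CpGs), HORMAD1 (45), STK31 (59) and BRDT (58) were all at 80.9% or more in Conventional cells, and they ended at 52.9%, 30.6%, 37.6% and 2.05% in Reset cells.

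C2H2 zinc finger genes were listed by their symbols, and many of them encode KRAB repressors of transposable elements. They gave 35 of the 367 promoters, 8.68% of the 403 CpG-dense promoters on this list. As a set they ended near the lower end of the range. Their mean was 80.5% ± 1.08 in Conventional and 9.69% ± 0.543 in Reset libraries (SD, n = 3 each), and 31 of the 35 were under 20% in Reset. The remaining 332 promoters were at 32.2% ± 0.254, so the zinc finger promoters differed by -22.5 points (-23.3 to -21.7 over the 3 Reset libraries, below 0 in each). Those 332 include PLAGL1 and PEG3, zinc finger genes that the symbols missed. PEG3 shares its window with ZIM2, which was counted among the 35. The exact sign-flip test gave p = 0.25 (two-sided, adjusted p = 0.25), again the smallest value possible. Where only promoters at 80% or more in Conventional were taken, 24 zinc finger promoters ended at 10.9% ± 0.462 and 243 others at 36.6% ± 0.323. Among the 503 zinc finger genes outside the 367, 377 were called lower and 7 higher, against 66.6% and 4.11% of all promoters.

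ZNF667 and ZNF528 had the lowest Reset levels of all 367 promoters. ZNF667 was at 89.8%, 92.6% and 88.7% in Conventional libraries and at 0%, 0.23% and 0% in Reset libraries. ZNF528 was at 88.8%, 91.3% and 92.0% and then at 0%, 0.535% and 0%. In the annotation an antisense RNA gene, ZNF667-AS1 or ZNF528-AS1, overlaps each of them. How many of the other promoters have such a gene was not counted, and a link to the Reset level was not tested. ZNF98 followed with 92.5%, 91.9% and 90.3% against 0%, 1.58% and 0.541%. A level of 0%, with no methylated call among 137 to 440 calls in such a library, allows up to 0.682% to 2.19% at these promoters by counting error. This limit and those given below treat calls as independent. Several calls can come from 1 read, so the true limits can be wider. ZNF568 and ZNF829, whose windows overlap and are not independent, and ZNF677 and ZFP28 were also at about 1% or less, but from Conventional levels of 50.1% to 68.3%. ZFP57, whose protein guards imprinted methylation, went from 95.4% ± 3.34 to 11.6% with 7.23%, 9.19% and 18.4% in the Reset libraries.

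Only 1 zinc finger promoter kept over 50%. ZNF662 was at 96.0%, 95.9% and 93.1% in Conventional and at 66.7%, 60.6% and 68.8% in Reset libraries, which placed it at rank 4 of 367 from the highest. ZNF124 followed at 47.4%, 33.3% and 46.2% with as few as 13 calls in a library, and 51.9% of its 32-base words occur more than once on the autosomes. By position, 24 of the 35 lie on chromosome 19, where zinc finger genes form large clusters, and they were at 6.17% ± 0.357 in Reset against 17.4% ± 2.24 for the 11 elsewhere. That difference rests largely on ZNF662 and ZNF124, without which the other 9 were at 9.25% ± 1.42, and the medians were 4.52% on chromosome 19 and 10.2% for the 11 elsewhere. The other 36 promoters on chromosome 19 were at 32.3% ± 0.589, and the 296 on other chromosomes at 32.1% ± 0.253.

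**Figure D2:**
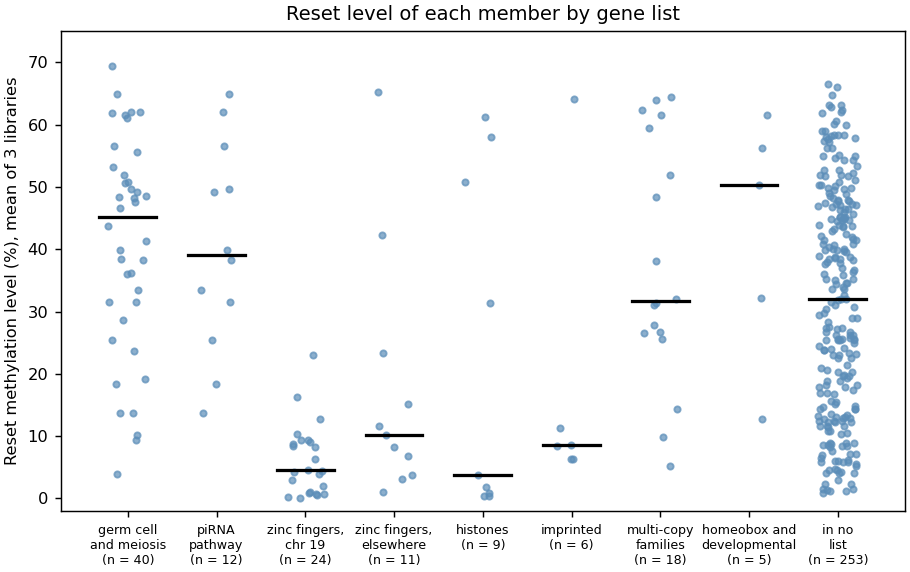
Reset level (y axis, %, mean of 3 libraries) of each methylated CpG-dense promoter by gene list (x axis), with 1 point per promoter, random horizontal scatter and a black bar at the median. A gene can stand in more than 1 list. Zinc finger points gather under 20% apart from 4, germ cell points spread from 3.96% to 69.5%, and 5 histone points lie under 5%, 1 at 31.3% and 3 above 50%.

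Histone genes made up 9 of the 367 promoters, 17% of the 53 that were CpG-dense, and 5 were under 5%, 1 between and 3 at 50% or more in Reset cells. H3C3, H3C11, H2BC3, H4C13 and H1-1 were all under 5%. H3C3 went from 95.2%, 95.1% and 84.8% to 0.427%, 0.98% and 0%, and H2BC3 from 97.6%, 94.5% and 97% to 0%, 1.85% and 0.671%, with limits of 1.95% (H3C3) and 1.78% (H2BC3) where a library had no methylated call. The H2BC3 and H3C3 windows overlap, as do those of H3C11 and H4C13. The 3 highest are known from the testis. H3-4, encoding H3t, went from 97.5%, 96.8% and 96.0% to 60.9%, 58.9% and 64.1%, H3-5, encoding H3.5, ended at 59.6%, 54.0% and 60.9%, and H2BC1, encoding a testis H2B, at 49.4%, 49.5% and 53.4%. H4C7 lay between the low and the high ones at 24.8%, 35.0% and 34.1%. As for position, H3-4 lies on chromosome 1 and H3-5 on chromosome 12. H4C7 and H2BC1 lie in the histone cluster on chromosome 6, as do H3C3 and H2BC3. The low and high groups were formed after the values were seen and were given no test, and position was not tested.

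**Figure D3:**
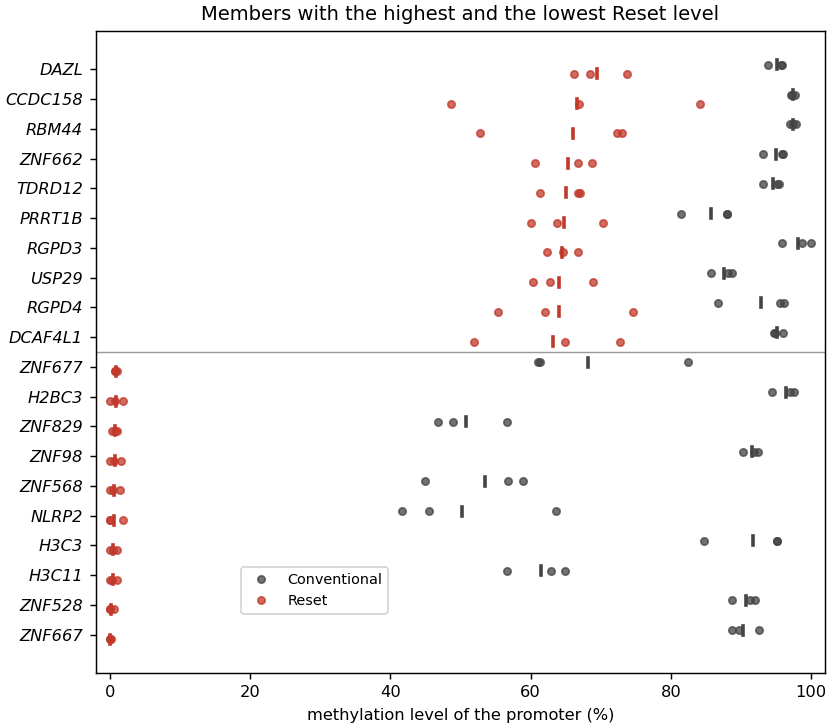
Methylation level (x axis, %) in each library for the 10 promoters with the highest and the 10 with the lowest Reset level (y axis), with a point per library and a bar at the mean of 3. The horizontal line separates the upper from the lower set. Reset points of the lower set lie at or near 0 in each library, while CCDC158 and RBM44 in the upper set spread widely.

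Imprinted genes are methylated on 1 parental allele, so a level near 50% is usual for them in somatic cells. Of 45 CpG-dense promoters of such genes 6 passed the 50% line, at 76.7% ± 1.53 in Conventional and 17.5% ± 1.29 in Reset libraries. PEG3 and ZIM2 start from the same promoter, which was at 88.4%, 86.7% and 86.5% and then at 6.47%, 6.63% and 5.70%. NDN, a gene of the Prader-Willi region, went from 73.2% ± 11.4 to 8.50% and the growth factor adaptor GRB10 from 64.8% ± 10.8 to 8.56%, and PLAGL1, a growth-suppressing zinc finger gene, from 60.4% ± 11.7 to 11.3%. USP29 differed from these, with 88.2%, 88.8% and 85.7% in Conventional and 68.9%, 60.4% and 62.8% in Reset libraries. Its annotated start does not lie in the window shared by PEG3 and ZIM2. Of the 55 imprinted genes outside the 367, 33 were called lower and 6 higher, against 66.6% and 4.11% of all promoters.

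Of 19 CpG-dense promoters of genes of naive cells and early embryos, 4 were methylated in Conventional cells, and these 4 were under 5% in Reset cells. They had a mean of 73.9% ± 6.91 in Conventional and 1.33% ± 0.567 in Reset libraries. DPPA5 showed the largest fall of all 367 promoters, 96.7 points, from 97.6%, 100% and 96.8% to 1.43%, 2.87% and 0%, where the last allows up to 1.64%. TRIM60 went from 94.4%, 93.3% and 96.5% to 2.35%, 1.78% and 2.73%. NLRP7 and NLRP2, maternal-effect genes with overlapping promoters, were near the 50% line, with 38.3%, 49.0% and 70.3% for NLRP7, and were measured at 1.35%, 1.59% and 0% (NLRP7) and 1.85%, 0% and 0% (NLRP2) in the Reset libraries. The libraries without a methylated call had 55 to 95 calls there, which allows up to 3.16% at NLRP7 and 5.45% at NLRP2, and 65.4% and 87.7% of the words of these promoters recur. The genes DPPA3 and KLF17, with 22 and 48 CpGs, were too CpG-poor to be included, and went from 79.9% to 4.41% and from 96.2% to 28.5%. DPPA4 was at 0.366% in both groups. Of the 48 genes of this list outside the 367, 38 were called lower and 0 higher, against 66.6% and 4.11% of all promoters.

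Multi-copy families contributed 18 promoters, or 43.9% of their 41 CpG-dense ones, at 93.0% ± 0.21 in Conventional and 37.8% ± 1.57 in Reset libraries. RGPD genes, relatives of the nuclear pore gene RANBP2, gave 4 of 5 CpG-dense promoters. RGPD3 kept 66.7%, 64.6% and 62.3% and RGPD4 62.1%, 55.4% and 74.6%, while RGPD1 had 17.6%, 44.4% and 14.8% and RGPD2 0%, 18.8% and 10.8%, where the 0% of 65 calls allows up to 4.62%. Reads of such copies can be placed on the wrong member, since 82.2% of the 32-base words of the RGPD3 promoter and 89.5% of those of RGPD1 recur on the autosomes. POTE genes, expressed in testis and prostate, ranged from 26.5% (POTEM) to 59.4% (POTEJ), and libraries differed strongly at POTED with 52.7%, 25.6% and 5.0%. From 61.8% to 97.3% of the words of these promoters recur, except at POTEA (31% in Reset) with 0.82%. Testis alpha-tubulins of the TUBA3 group were more even, at 48.4% (TUBA3C), 52.0% (TUBA3D) and 61.6% (TUBA3E). Across the 367 promoters, 163 had over 10% and 22 had over 50% of their words repeated. Without the 163, an alternative added after the data were seen, the mean Reset level of the remaining 204 was 29.7%, and the germ cell and zinc finger differences were 12.1 and -22.4 points.

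Most of the promoters, 269 of the 367, were in none of the germ cell, zinc finger, histone and multi-copy lists, and these were at 82.4% ± 0.741 in Conventional and 31.1% ± 0.334 in Reset libraries. Some symbol roots gave 3 or more of the 367, though a shared root does not always mean a family by descent. Of their CpG-dense promoters, FAM gave 7 of 109, SLC, the solute carriers, 6 of 231 and TMEM 3 of 163. ANKRD gave 4 of 42, CYP 4 of 20, PRSS 4 of 8 and TRIM 4 of 36. SMIM gave 3 of 21 and TNFRSF 3 of 14. SLC and TMEM gave no larger share than the 2.93% of all CpG-dense promoters. Tissue-specific subunits of cytochrome c oxidase, the last enzyme of the respiratory chain, gave 4 of 22 CpG-dense COX promoters. COX8C, a testis subunit, stood at 54.5%, 49.6% and 81.3% in Reset libraries, COX6A2, the form of heart and muscle, at 60%, 47.7% and 44.6%, the lung form COX4I2 at 44.4%, 43.8% and 46.2%, and COX7A1, another muscle form, at 18.0%, 23.9% and 16.8%. PRR23A, PRR23B and PRR23C, a cluster of proline-rich genes, kept 57.3%, 58.0% and 51.8%. CCDC genes, named for a coiled-coil domain and not a family by descent, gave 12 of 90 and ran from 10.4% to 66.6%. The highest of these, CCDC158, was at 84.2%, 66.9% and 48.7% in the Reset libraries, so its place near the top depends on the library. RBM44 was also uneven at 72.3%, 73.0% and 52.8%.

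Homeobox and other developmental regulators had 241 CpG-dense promoters, of which 5 (2.07%) were methylated in Conventional cells, near the 2.93% of all CpG-dense promoters, and 232 were under 20%, where 80.4% of all CpG-dense promoters lay. Those were FOXR1, FOXI1, DMRTC2, DMRTB1 and NKX6-3, at 12.8% to 61.6% in Reset cells. Of the other 286 genes on this list 47 were called lower and 112 higher in Reset, against 66.6% and 4.11% of all promoters. The list of receptors and ion channels of excitable cells gave 2 of 186 (1.08%), CACNG1 and GRID2IP, the latter named for interacting with a receptor. No clustered protocadherin qualified. Only 2 of the 51 had a CpG-dense window under this definition, and both were under 20% in Conventional cells.

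Sequence features set these promoters apart from the 10082 CpG-dense promoters under 20%, as a description without a test. They held fewer CpGs (a median of 75 against 104, with 60 to 157 in all), a lower ratio of observed to expected CpGs (0.642 against 0.763) and a lower GC content (58.0% against 61.1%). At most 1 annotated coding start was present at 38.1% of them against 18.6%. Of the 367, 56 (15.3%) lay within 2 Mb of a chromosome end, against 7.55% of CpG-dense promoters. The number of CpGs did not order the promoters by Reset level, since Spearman's rho over the 367 was 0.00149. It was 0.381 for the Conventional level, -0.243 for observed to expected CpGs, 0.235 for GC content and 0.23 for the Reset level of the flanks 2000 to 5000 bp away, over promoters that share libraries and in part neighbourhoods.

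The Reset level differed with the position in the promoter. In the 300 promoters with enough calls in both windows, the mean within 250 bp of the TSS was 26% ± 0.206 in Reset libraries, and from 1000 to 500 bp upstream it was 36.3% ± 0.538. The difference of -10.3 points (-10.5 to -9.92) was below 0 in 3 of 3 libraries, and the exact sign-flip test gave p = 0.25 (two-sided), the smallest possible. In Conventional libraries the same windows were at 79.8% and 88.3%. The dip was deepest at the zinc finger promoters, at 4.77% around the TSS against 20.7% upstream, and 29 of 31 were lower around the TSS. Germ cell promoters had 37.3% against 41.8%, lower around the TSS in 23 of 37. Of all 300, 207 were lower around the TSS, as were 155 of the 232 in neither set. The germ cell share was below that of all 300. Compared with their flanks, 27 of 40 germ cell promoters were higher in Reset cells but 1 of 35 zinc finger promoters, and 160 of all 367.

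**Figure D4:**
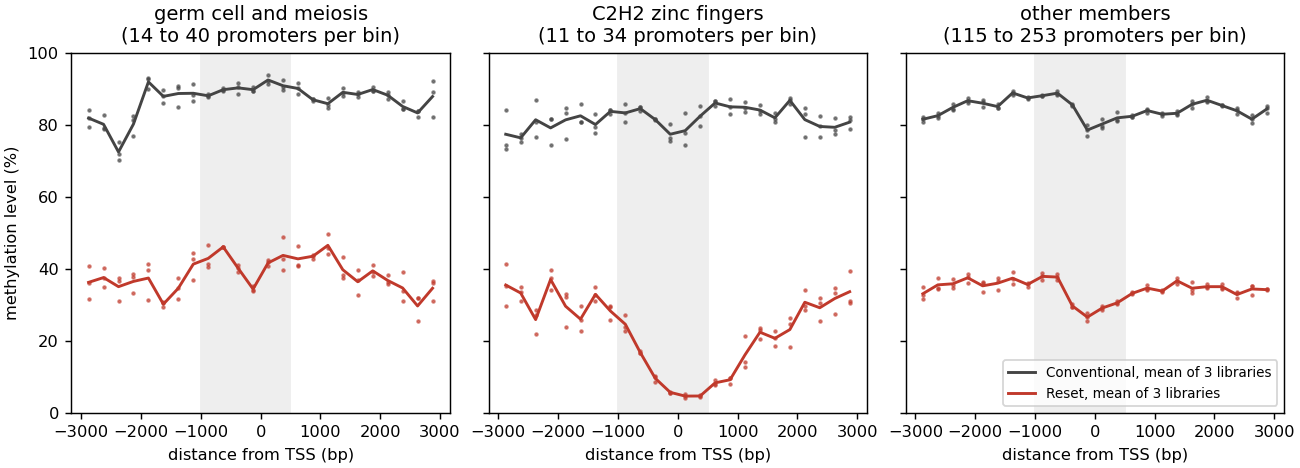
Methylation level (y axis, %) in bins of 250 bp by distance from the TSS (x axis, bp) for germ cell and meiosis, zinc finger and the remaining methylated CpG-dense promoters, with lines at the mean of 3 libraries and points for each library. The grey band is the promoter window. Conventional lines stay high throughout, and the Reset line of the zinc finger genes drops to about 5% at the TSS and returns towards its flanks, while that of the germ cell genes moves between 29.7% and 46.6%.

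Beside the methylated promoters with at most 20 CpGs, of which 2461 were at 50% or more in Conventional cells, the CpG-dense ones did not stand apart clearly. The CpG-poor set was at 85.2% ± 0.158 in Conventional and 27.7% ± 0.612 in Reset libraries. The CpG-dense set was 2.36 points higher in Reset (2.08 to 2.85, above 0 in 3 of 3 libraries, exact sign-flip test p = 0.25, two-sided). This difference changed sign with the processing, to -0.744 with a window of 500 bp on each side, to -0.325 with at least 30 calls and to -1.09 with all promoters under 60 CpGs as the CpG-poor set. It was larger, 4.99 points, where both sets were at 80% or more in Conventional, and 3.38 points with at least 50 CpGs. The spread was wider in the CpG-dense set, with quartiles of 11.9% and 46.9% against 17.3% and 37.5%.

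Short motifs were counted in the whole promoter windows on both strands, and none of the 4 contains another. The E-box CACGTG, bound by MYC, MAX and MGA among others, occurred in 34.9% of the 367 promoters, against 27% of the CpG-dense promoters under 20% in Conventional and 24.2% of all promoters tested. It was in 57.5% of the germ cell and 20% of the zinc finger promoters. GGCGGGAA, resembling sites of E2F factors, was in 13.4% of the 367, less than the 17.7% of CpG-dense promoters under 20% and close to the 12.8% of all, with 32.5% of the germ cell and 11.4% of the zinc finger promoters. For GCATGCGC, which resembles the NRF1 site, the shares were 9.26% of the 367, 9.64% of CpG-dense promoters under 20% and 7.7% of all, with 17.5% and 5.71% in the germ cell and zinc finger sets. TGCCGC, the letters bound by ZFP57 when methylated, was in 59.9% of the 367, 70.8% of CpG-dense promoters under 20% and 54.6% of all, with 67.5% and 54.3% in these sets. A match describes the sequence and shows no binding.

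Promoters nearest to the 50% line were ZFP28 (50.1%), NLRP2 (50.3%) and ANO9 (50.3%) inside it and PUS7L (49.9%), CDH1 (49.9%) and ECRG4 (49.8%) outside it. Every Reset library was below every Conventional library at 360 of the 367 promoters, a count that the choice bears on, and at 68.1% of all promoters. Of the 367, 7 had overlapping groups and 6 were not called lower, with MAP10, TRIM4, SPRN, SCT and ALPK3 in both sets. SCT, encoding the hormone secretin, was at 58.0%, 60% and 48.6% in Conventional and at 60.2%, 65.0% and 51.9% in Reset libraries. TRIM4 was at 46.0%, 68.8% and 52.7% and at 50%, 62.2% and 62.4%. These were the 2 promoters with a higher mean in Reset, and their groups overlap. At SPRN the 3 Conventional libraries had 90%, 50% and 28.2%, with as few as 20 calls.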

How the data were processed

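Whole-genome bisulfite sequencing libraries of H9 cells, 3 Conventional and 3 Reset, were analysed from the deposited calls. The authors fragmented genomic DNA by sonication, ligated methylated adaptors, treated the DNA with bisulfite and amplified it with 11 PCR cycles. The submitters' processing notes name Trim Galore, Bismark 0.9.0, Bowtie2 and GRCh37, while the study's methods name an earlier Bismark version, so the version used is uncertain. Removal of duplicate reads is not given in the sources used here, so repeated copies of a molecule may be counted more than once. Every limit covers counting error only and treats calls as independent, though 1 read can give several calls. The deposited counts are methylated and unmethylated calls at each cytosine with no normalization. The deposited percent equals the methylated share of these counts on every line and was not used further.

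Positions were counted from 0 in the files and are printed counted from 1. Calls on both strands of a CpG were summed. Windows were taken around the canonical TSS of GENCODE 44 lifted to GRCh37 for autosomal genes, and sequences were read from GRCh37. Library levels were averaged within groups. The test between groups was an F test from a logistic model of the calls with quasi-binomial error, in R 4.3.3, with the dispersion moderated by limma 3.58.1 and kept at 1 or above. P-values were adjusted by Benjamini-Hochberg over 18551 promoters and called at 0.05. The model was tested on simulated data. Differences within Reset libraries were tested by exact sign flips of the 3 library differences. Libraries of a group differed by more than independent calls would, with a mean chi-square of 2.17 to 3.13 per promoter where independent calls give 1. It was computed over the 7145 to 10804 promoters with enough methylated and unmethylated calls in a pair of libraries. Calls from 1 read are not independent, so the excess need not be a difference between libraries. Repeated sequence was measured as the share of a window's 32-base words found more than once on the autosomes.

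The gene lists and the promoters described were chosen with earlier results of these data known. Genes were named by rule, as the 10 highest and 10 lowest Reset levels, the 3 nearest to 50% on either side, the extremes of each list with at least 3 promoters, a set of germ cell, imprinted and naive genes, and symbol roots with at least 3 promoters. Other genes were named after their values were seen. Sequences were limited to 200 bases upstream of the TSS, leaving out the downstream stretch that had been planned. The alternatives tried were another window, TSS, CpG or depth minimum, level definition, test and set of libraries, and, added after the data were seen, the removal of repeated promoters.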

Additional observations from a re-analysis of the deposited data

How the results depend on the processing

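The Reset differences of germ cell promoters, zinc finger promoters and the TSS window kept their sign in every alternative they were computed under, and the counts of calls stayed within 1.5 times except as given here. With 3 Reset libraries no exact p can pass 0.05, so these tests say nothing about stability. The difference between CpG-dense and CpG-poor methylated promoters (2.36 points) reversed to -0.744 with windows of 500 bp on each side, to -0.325 with at least 30 calls (exact sign-flip p = 0.5) and to -1.09 against all promoters under 60 CpGs, and was 4.99 with at least 80% in Conventional. The cause was not tested. Windows of 500 bp gave 195 methylated promoters in place of 367, a mean Reset level of 29.1%, 84 under 20%, a median loss of 68%, 190 of 203 chosen promoters called lower in the held-out test (35.5% of all promoters) and 7001 of all promoters called lower in place of 12362. A minimum of 80 CpGs gave 144 promoters, 57 under 20%, a loss of 69.5%, 153 of 160 chosen promoters called lower in the held-out test (64.6% of all promoters) and a germ cell difference of 6.72 points in place of 12.2. Requiring 80% in Conventional gave a mean Reset level of 34.3%, 74 under 20% and a loss of 58.4%. Smaller shifts of the mean Reset level (30%) and median loss (64%) were 30.5% and 63.1% with the most upstream start, 31.0% and 60.6% with at least 50 CpGs, 29.8% and 64.4% with at least 30 calls, 30.4% and 63.3% with 1 promoter per overlapping pair, and 30.5% with levels averaged over CpGs, where the loss was 64.2%. Without promoters of repeated sequence, 204 remained, with 78 under 20%, a mean of 29.7% and a loss of 62.6%. Leaving out 1 library at a time gave mean Reset levels of 29.7% to 30.4% and losses of 63.3% to 64.5%. In the held-out test, leaving out 1 Reset library gave 366 to 368 of 383 chosen promoters called lower. Of all promoters, 60.4% to 61.4% were called lower in the same fits. Leaving out a Conventional library left only 1 of that group to test with, so no counts are given for it. Fisher's exact test on pooled calls gave 13288 of all promoters lower and 1050 higher. Planned comparisons of protocadherins could not be run because none qualified.

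Deviations of same-numbered Conventional and Reset libraries had correlations of 0.0061, 0.0134 and 0.00807, and other pairs ran from -0.0149 to 0.0071. Values this small do not tell whether same-numbered libraries shared a culture or preparation. With the replicate number as a block, 361 of 383 chosen promoters were called lower in the held-out test (55.7% of all promoters), and 12161 of all promoters were called lower and 711 higher. Depth limits single promoters most where a library had few calls, as at SPRN and ZNF124, and levels of single CpGs were not analysed at 2.53 to 3.5 calls per CpG.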
